A study of Mus musculus with 6 samples.

Results

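Semaphorins, plexins and neuropilins were examined in mouse olfactory epithelium (strain CD1) after cell sorting by ICAM1 (CD54), an adhesion protein that horizontal basal cells, the reserve stem cells of this tissue, carry on their surface. Members were all probe sets, the groups of array features that read 1 transcript, whose gene symbol in the platform table was Sema followed by a digit, began with Plxn, or was Nrp1 or Nrp2. The rule took in 79 probe sets of 32 genes out of 16399 genes tested: 20 semaphorin ligand genes with 48 probe sets, 11 receptor genes (9 plexins and 2 neuropilins) with 30, and 1 antisense RNA, Plxna4os1, which is neither. Of the 79 probe sets 77 passed the filter on low values, and all 32 genes kept at least 1.

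Each of 3 litters, taken at postnatal days 21, 22 and 24, was split into cells with and cells without ICAM1, with 1 array for each, so there were 3 arrays per group and 6 in all. Cells of a litter were pooled, and age and litter cannot be told apart. No transgene, mutation or treatment is given in the labels, and the ICAM1-negative sort is whatever lacked the antigen, with no positive marker of its own. The values are linear intensities that the authors deposited, with an equal trimmed mean on every array and no detection call. The number of arrays limits the precision.

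Titles and free-text descriptions disagree on which sort a sample is, so Icam1 itself was read first. It stood at 13 to 33.2 on the arrays titled ICAM1-negative and at 6817 to 7247 on those titled ICAM1-positive, and the titles were used. Markers of horizontal basal cells were higher in ICAM1-positive cells for 7 of 7 genes, with a summed intensity of 654 to 1033 against 79827 to 83457. Monocyte and macrophage markers were higher for 7 of 8 (965 to 1168 against 16384 to 21288), and dendritic cell markers for 4 of 5 with 1 lower (580 to 903 against 4254 to 7460). Markers of immature neurons were lower for 6 of 6 (40561 to 50680 against 1993 to 4121) and those of mature olfactory neurons for 6 of 6 (65696 to 81986 against 4411 to 9413). Of 5 endothelial markers measured 0 passed the test, and 4 (Cdh5, Tek, Vwf and Emcn) were below the array median on all 6 arrays. Of the remaining lists, globose basal cells and precursors had 4 of 5 markers lower, microvillar and tuft cells 4 of 7 lower, lymphocytes 1 of 3 lower, sustentacular cells 2 of 6 higher and fibroblasts 1 of 6 higher, while 0 of 5 pericyte and 0 of 4 ensheathing glia markers passed. These cell mixtures move with every result that follows, and their part in it was not tested. In sorted bulk RNA, fewer cells of a type and less RNA per cell cannot be told apart.

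Semaphorins are secreted or membrane-bound ligands that steer growing axons and migrating cells, mostly by repulsion. Plexins are their transmembrane receptors and act on small GTPases inside the cell, and neuropilins are co-receptors that bind the secreted class 3 semaphorins and also VEGF. In the olfactory system, Nrp1 and Nrp2 on the axons of sensory neurons, with Sema3a and Sema3f as ligands, help to sort those axons on their way to the olfactory bulb.

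Ligands and receptors both divided between the sorts. Of 20 ligand genes 8 were higher in ICAM1-positive cells at an adjusted p under 0.05, 5 were lower and 7 did not pass, with a median log2 difference of 0.63. Of 11 receptor genes 2 were higher, 5 lower and 4 did not pass, with a median of -0.59. The same rule called 41.4% of all genes tested, 20.6% higher and 20.8% lower, and their median was -0.06. So 65% of the ligands and 63.6% of the receptors were called, against that 41.4%. Because the members were chosen with earlier results of these data known, their shares, here and below, are no independent test against all genes. Ligand differences ran from -4.34 to 8.26 and receptor differences from -3.36 to 1.88. A range widens with the number of genes, and 20 ligands stand here against 11 receptors. The ligand extremes also rest on a sort dimmer than the array median. With values below that median set to it, Sema3d was at 6.16, Sema5a at 5.69 and Sema4f at -3.49. The arrays of the sorts did not overlap for 16 of the 20 ligands and 10 of the 11 receptors, compared with 57.9% of all genes.

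**Figure D1:**
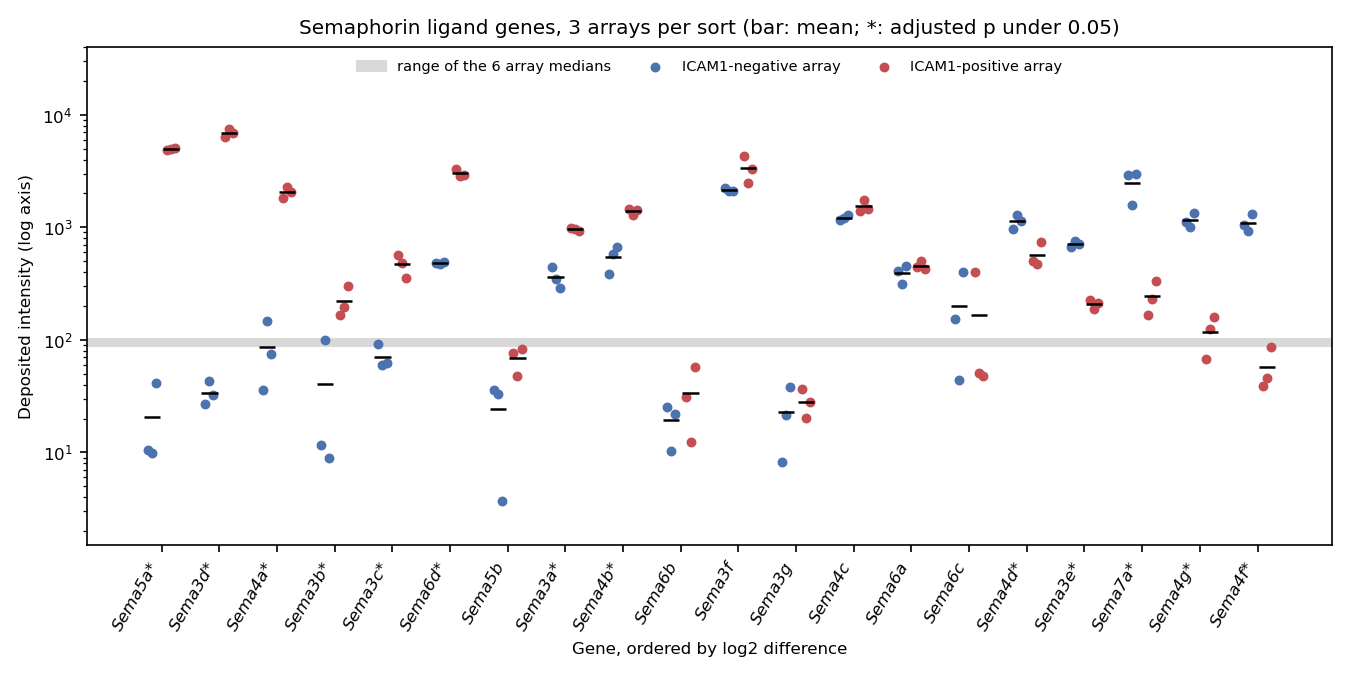
Deposited intensity of each semaphorin gene on the 6 arrays, on a log axis, with a bar at the mean of each sort and the grey band at the range of the array medians (87.9 to 102.8). Sema5a and Sema3d lie below the band on all ICAM1-negative arrays and between 4881 and 7429.6 on all ICAM1-positive arrays, while Sema4f shows the opposite pattern.

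The secreted class 3 ligands included the gene Sema3d, whose product binds neuropilins. Sema3d (probe set 1429459_at) read 27.2, 42.7 and 32.3 in ICAM1-negative sorts against 6385, 7429.6 and 6888 in ICAM1-positive sorts, in the order of litters 1 to 3. It was near background in one sort and bright in the other on every array (log2 difference 7.68 ± 0.22, adjusted p = 0.000124), at least 71.4-fold higher in ICAM1-positive cells. This lower bound sets the dim arrays at their array median, and the same convention holds for every fold given as "at least". Among all genes tested Sema3d ranked 20 from the highest by log2 difference, a rank that the dim side leaves uncertain.

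Sema3a, the classic repellent that acts through Nrp1, was above the array median in both sorts. Its intensity was 443, 345 and 289.5 in ICAM1-negative sorts against 988, 972 and 932 in ICAM1-positive sorts (log2 difference 1.45 ± 0.21, adjusted p = 0.00337), and all 3 of its probe sets were higher. Sema3c, which attracts or repels depending on the cell, read 91.3, 60.3 and 61.8 in ICAM1-negative sorts against 569, 478 and 357 in ICAM1-positive sorts (log2 difference 2.72 ± 0.27, adjusted p = 0.000855; at least 4.76-fold). Neither gene's groups overlapped, and the differences within litters 1, 2 and 3 were 1.16, 1.49 and 1.69 for Sema3a and 2.64, 2.99 and 2.53 for Sema3c. Sema3b, another class 3 ligand, was dim and variable in ICAM1-negative cells, at 11.7, 100.5 and 8.9 against 165, 196 and 302 in ICAM1-positive cells (log2 difference 3.29 ± 0.94, adjusted p = 0.0408). Litter 2 differed by 0.96 and litter 3 by 5.08. The call was lost with litter as a block (adjusted p = 0.0715), without a filter on low intensities (0.0528), without litter 1 (0.191) or 3 (0.228), and without any single array other than ICAM1-negative array 2 (0.0818 to 0.118). Without that array the log2 difference was 4.39. Once dim values were set to the array median, the log2 difference over all arrays was 1.12 (SE 0.22, adjusted p = 0.00422). That setting replaced 2 of the ICAM1-negative values and so narrowed their spread, so its adjusted p says nothing about the stability of the call.

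Sema3e was the one class 3 gene that was lower in ICAM1-positive cells. Its product binds Plexin-D1 directly, without a neuropilin. It read 667, 752 and 712 in ICAM1-negative sorts against 224, 189.7 and 214 in ICAM1-positive sorts (log2 difference -1.76 ± 0.17, adjusted p = 0.000694), and all 4 of its probe sets were lower. Plxnd1, the gene of that receptor, was 130.1, 164 and 221 in ICAM1-negative sorts against 115, 109 and 111 in ICAM1-positive sorts and did not pass (log2 difference -0.59 ± 0.24, adjusted p = 0.107), though its groups did not overlap. With dim values of all probe sets set to the array median, its adjusted p was 0.0441. None of its own values was dim, and its log2 difference stayed at -0.59. Only its standard error changed, to 0.19.

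Sema3f, the ligand associated with Nrp2, depended on the probe set. The one with the highest intensity, 1438947_x_at, read 2256, 2119 and 2085 in ICAM1-negative sorts against 4302, 2482 and 3292 in ICAM1-positive sorts and did not pass (log2 difference 0.61 ± 0.24, adjusted p = 0.106). Its name ends in _x_at, which marks probe sets with probes that may also match other transcripts. The other probe sets passed, 1425840_a_at at 2.23 ± 0.31 (adjusted p = 0.00291) and 1420508_at at 2.30 ± 0.34 (adjusted p = 0.00346). All 3 were higher on every ICAM1-positive array than on any ICAM1-negative array. Sema3g stayed at 8.3 to 38.3 on the 6 arrays, below every array median, and no difference was detectable there.

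Several class 3 genes are neighbours on chromosome 5 in the mouse assembly GRCm38.p6. Sema3d is followed by Sema3a with 0 protein-coding genes between them, and Sema3a by Sema3e with 3 between. The adjacent pair was higher in ICAM1-positive cells, by 7.68 and 1.45 on the log2 scale, while Sema3e was lower by 1.76. Their upstream sequences, the 250 bases before the RefSeq transcript start, are shown because these neighbours moved by different amounts and in different directions. Capitals mark the E-box CAGGTG on either strand (CACCTG when read from the other strand). They lie at chr5:12382916-12383165 (plus strand), chr5:13396534-13396783 (plus strand) and chr5:14025026-14025275 (plus strand), and hold 46.8%, 40.8% and 48% G and C, below the 64% median of the member promoters and the 52.4% of all promoters in the table. Of the 3, the Sema3d sequence holds the E-box.
Sema3d: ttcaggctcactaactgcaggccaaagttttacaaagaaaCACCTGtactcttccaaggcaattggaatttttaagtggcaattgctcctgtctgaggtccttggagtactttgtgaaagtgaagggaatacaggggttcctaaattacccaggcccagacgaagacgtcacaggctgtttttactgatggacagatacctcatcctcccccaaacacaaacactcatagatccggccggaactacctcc
Sema3a: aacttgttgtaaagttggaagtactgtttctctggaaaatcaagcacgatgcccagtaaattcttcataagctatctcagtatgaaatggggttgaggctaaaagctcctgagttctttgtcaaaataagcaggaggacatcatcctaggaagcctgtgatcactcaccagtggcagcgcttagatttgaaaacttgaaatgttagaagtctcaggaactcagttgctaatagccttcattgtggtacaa
Sema3e: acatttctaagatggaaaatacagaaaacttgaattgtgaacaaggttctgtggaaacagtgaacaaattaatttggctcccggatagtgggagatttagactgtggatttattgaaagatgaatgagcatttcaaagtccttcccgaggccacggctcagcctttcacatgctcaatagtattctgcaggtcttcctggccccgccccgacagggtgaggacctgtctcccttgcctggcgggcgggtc

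The membrane-bound class 4 ligands moved both ways. Sema4a, which acts on immune cells and binds plexins of classes B and D, read 36.1, 147 and 75.2 in ICAM1-negative sorts against 1829.9, 2263 and 2071 in ICAM1-positive sorts (log2 difference 4.80 ± 0.51, adjusted p = 0.00104). The ICAM1-positive arrays were all far above the others. These values are of 1438934_x_at, whose name calls for the same caution as for Sema3f. Both of its probe sets were higher, the other, 1448110_at, by 5.085 ± 0.52. Once dim values were set to the array median the log2 difference of 1438934_x_at was 4.20. Sema4b read 383, 581 and 663 in ICAM1-negative sorts against 1441, 1289 and 1433 in ICAM1-positive sorts (log2 difference 1.39 ± 0.25, adjusted p = 0.00767), without overlap, but missed the threshold without litter 1 (adjusted p = 0.0555) or litter 2 (0.0537). Sema4c, a ligand of Plexin-B2, read 1172, 1200.0 and 1282 in ICAM1-negative sorts against 1394, 1746 and 1459 in ICAM1-positive sorts and did not pass (log2 difference 0.33 ± 0.17, adjusted p = 0.204), although its groups did not overlap.

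Sema4f, Sema4g and Sema4d were lower in ICAM1-positive cells. Sema4f (probe set 1439768_x_at) fell from 1057, 928 and 1308 to 39.2, 45.9 and 86.7 in litters 1 to 3 (log2 difference -4.34 ± 0.34, adjusted p = 0.00042), at least 11.3-fold lower. Once dim values were set to the array median the log2 difference was -3.49. The name of this probe set ends in _x_at, with the same caution as for Sema3f. The other Sema4f probe set, 1419328_at, was lower as well but by less (-2.25 ± 0.27), at least 4.05-fold. Sema4g, read by 1 probe set, was 1118, 1006 and 1331 in ICAM1-negative sorts against 67.2, 124 and 159 in ICAM1-positive sorts (log2 difference -3.38 ± 0.35, adjusted p = 0.00098). For both genes the sorts were far apart on every array. Sema4d, also known as CD100, is a ligand of Plexin-B1 and, on lymphoid cells, of CD72. It read 971, 1282 and 1139 in ICAM1-negative sorts against 505, 472 and 738 in ICAM1-positive sorts (log2 difference -1.0 ± 0.24, adjusted p = 0.0227). That call was lost when litter 1 (adjusted p = 0.119), litter 2 (0.13) or litter 3 (0.0591) was left out, without ICAM1-positive array 1 (0.0741) or 2 (0.0644) or ICAM1-negative array 2 (0.0674) or 3 (0.0642), and with its probe sets averaged (0.103).

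In class 5, transmembrane proteins with thrombospondin repeats, Sema5a was much higher in ICAM1-positive cells. Sema5a (probe set 1434776_at) read 10.6, 9.8 and 41.2 in ICAM1-negative sorts against 4881, 4962 and 5108 in ICAM1-positive sorts (log2 difference 8.26 ± 0.57, adjusted p = 0.000296), at least 51.6-fold higher in ICAM1-positive cells. It ranked 10 from the highest among all genes tested, with the same uncertainty as for Sema3d. Its log2 difference was above that of Sema3d as measured but below it once dim values were set to the array median (5.69 against 6.16), so the order of the pair is not settled. Of its 4 probe sets 3 were higher, and 1459109_at, near background throughout at 1.4 to 33.2, did not pass (1.85 ± 1.01). Sema5b stayed below the array median on all 6 arrays, at 3.7 to 82.3, and did not pass (log2 difference 2.03 ± 0.92, adjusted p = 0.144).

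Class 6 semaphorins are transmembrane ligands of class A plexins and can act as receptors themselves. Sema6d read 486, 475 and 491 in ICAM1-negative sorts against 3277, 2885 and 2917 in ICAM1-positive sorts (log2 difference 2.64 ± 0.16, adjusted p = 0.000207), with within-litter differences of 2.75, 2.60 and 2.57, the narrowest spread among the ligands that passed. Of its 4 probe sets 3 were higher. The others of the class did not pass. Sema6a, a ligand of Plexin-A2 and Plexin-A4, stood at 315.0 to 506 with overlapping sorts (log2 difference 0.23 ± 0.21, adjusted p = 0.452), and Sema6b at 10.4 to 57.2 (log2 difference 0.65 ± 0.64, adjusted p = 0.484). Sema6c ranged from 43.6 to 399 in ICAM1-negative and from 47.6 to 399.9 in ICAM1-positive cells, so no direction could be read from it (log2 difference -0.48 ± 1.13, adjusted p = 0.783).

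Sema7a, the only semaphorin with a lipid anchor, binds Plexin-C1 and integrins that contain the beta 1 chain. Its bright probe set, 1459903_at, read 2924, 1569.8 and 2970.1 in ICAM1-negative sorts against 167, 232 and 334 in ICAM1-positive sorts (log2 difference -3.35 ± 0.38, adjusted p = 0.00129), so that every ICAM1-negative array was above every ICAM1-positive array. The other, 1422040_at, was near background at 13.4 to 33.9 and did not pass.

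**Figure D2:**
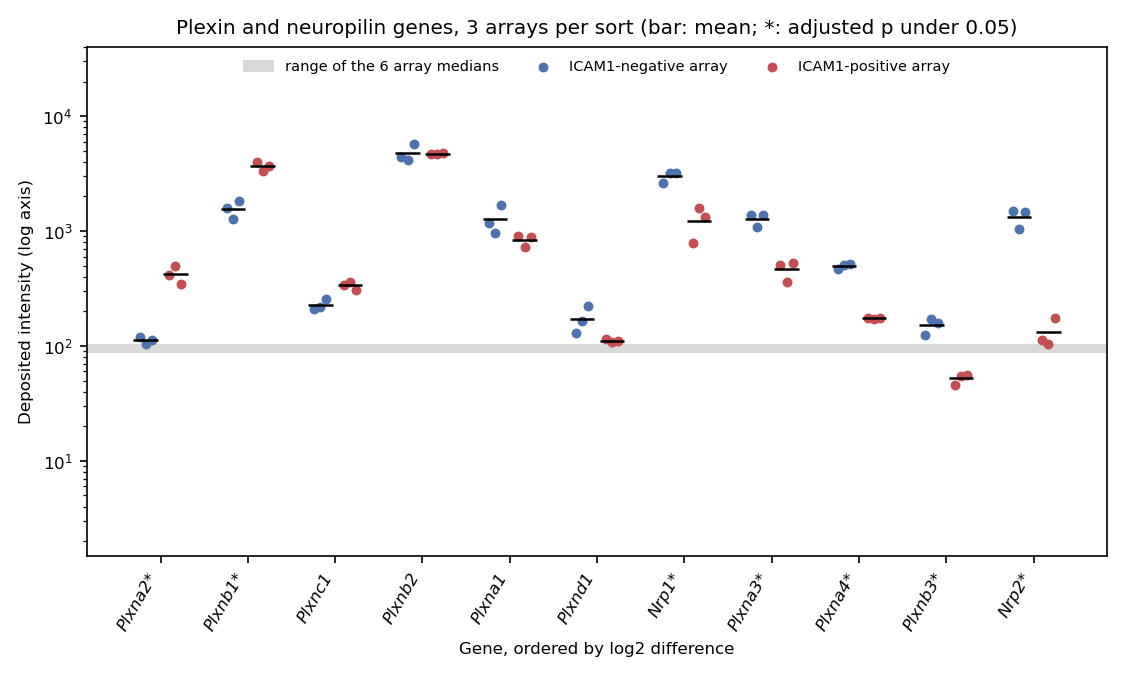
Deposited intensity of each plexin and neuropilin gene on the 6 arrays, on a log axis, with a bar at the mean of each sort and the grey band at the range of the array medians (87.9 to 102.8). In ICAM1-positive cells Nrp2 comes down close to the band (104 to 176) and Plxnb3 lies below it (45.8 to 55.5), while Plxnb2 overlaps between the sorts.

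Both neuropilin genes were lower in ICAM1-positive cells. Nrp2 (probe set 1435349_at) fell from 1490.2, 1041 and 1454 in litters 1 to 3 to 113, 104 and 176 (log2 difference -3.36 ± 0.28, adjusted p = 0.000484), a 10.3-fold difference. Nrp1 (probe set 1448943_at) read 2646, 3213 and 3233 in ICAM1-negative sorts against 794, 1578 and 1319 in ICAM1-positive sorts (log2 difference -1.35 ± 0.30, adjusted p = 0.016). Neither gene's sorts overlapped, and for both genes all 4 probe sets were lower. The call of Nrp1, read from 1448943_at, was lost without litter 1 (adjusted p = 0.0533), litter 2 (0.0528) or litter 3 (0.111) and without ICAM1-negative array 2 (0.0513) or 3 (0.053). The direction of that probe set was the same in each litter, at -1.74, -1.03 and -1.29. On all 6 arrays the other Nrp1 probe sets, 1418084_at, 1448944_at and 1457198_at, were at -1.77, -2.21 and -2.27 (adjusted p = 0.00119, 0.00207 and 0.00136). Endothelial cells and macrophages are known to carry Nrp1 as well; macrophage markers rose and endothelial markers did not pass in these arrays, as given above.

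Class A plexins, which pair with neuropilins to receive class 3 ligands, did not move together. Plxna3 read 1392, 1082 and 1372 in ICAM1-negative sorts against 509, 357 and 529.7 in ICAM1-positive sorts (log2 difference -1.47 ± 0.23, adjusted p = 0.00456), and Plxna4 read 466, 510.0 and 519.9 in ICAM1-negative sorts against 175, 172 and 174 in ICAM1-positive sorts (log2 difference -1.52 ± 0.15, adjusted p = 0.00091). Both were lower in every litter, but Plxna3 missed the threshold without litter 1 (adjusted p = 0.0551). Plxna2, which also receives class 6 semaphorins, was higher instead, at 119.9, 105 and 113 in ICAM1-negative sorts against 413, 496 and 349 in ICAM1-positive sorts (log2 difference 1.88 ± 0.20, adjusted p = 0.000994), and all 4 of its probe sets rose. Plxna1 read 1178, 956 and 1700.1 in ICAM1-negative sorts against 900.0, 732 and 897 in ICAM1-positive sorts and did not pass (log2 difference -0.57 ± 0.26, adjusted p = 0.153), although no array overlapped. The antisense RNA Plxna4os1, next to the gene Plxna4 by its name, was at 5.6 to 38.1 and did not pass (log2 difference 0.99 ± 0.79, adjusted p = 0.389).

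Class B plexins mostly receive class 4 semaphorins, and Plexin-B3 also Sema5A. Plxnb1 read 1589.8, 1279 and 1843 in ICAM1-negative sorts against 3971, 3328 and 3661 in ICAM1-positive sorts (log2 difference 1.23 ± 0.20, adjusted p = 0.00567), and both of its probe sets were higher; without litter 1 it missed the threshold (adjusted p = 0.0748). Plxnb3 went the other way, at 124, 172 and 159 in ICAM1-negative sorts against 45.8, 55.2 and 55.5 in ICAM1-positive sorts (log2 difference -1.53 ± 0.20, adjusted p = 0.00242), at least 1.56-fold lower. Plxnb2 was bright in both sorts and its arrays overlapped, with 4399, 4149 and 5676 in ICAM1-negative sorts against 4696, 4670.4 and 4788 in ICAM1-positive sorts (log2 difference 0.01 ± 0.19, adjusted p = 0.983). The 3 class B genes thus gave 1 higher, 1 lower and 1 that did not pass. Plxnc1, the receptor gene for Sema7a, stood at 212, 218 and 255 in ICAM1-negative sorts against 341, 363 and 305 in ICAM1-positive sorts and narrowly missed the threshold (log2 difference 0.56 ± 0.18, adjusted p = 0.0535). Of its 5 probe sets tested, 1450905_at was higher (log2 difference 1.54 ± 0.42, adjusted p = 0.0358) and 3 dim ones had the opposite sign without passing. Without litter 1, 1 receptor gene was higher and 3 were lower.

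**Figure D3:**
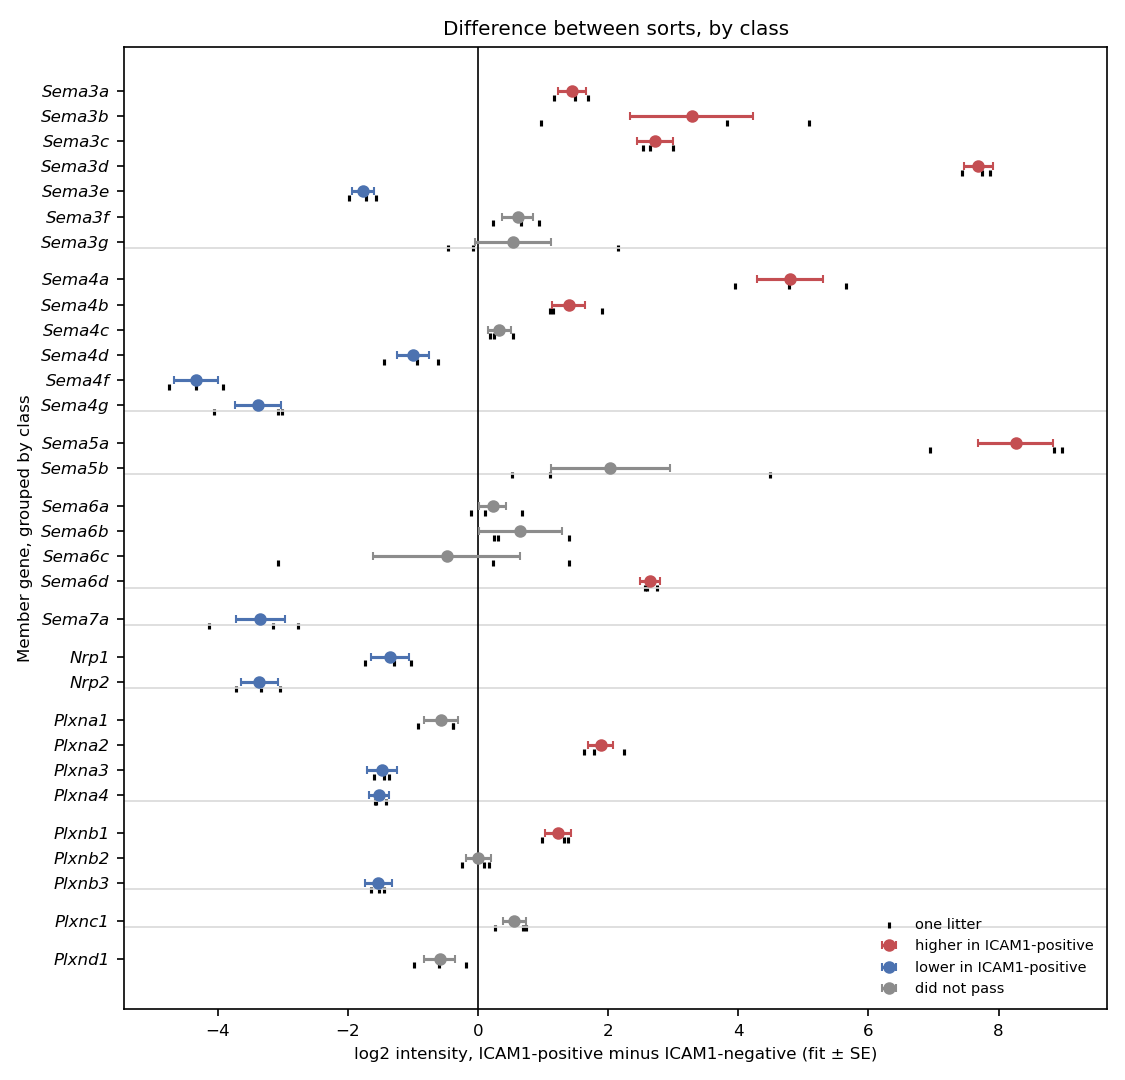
Log2 difference between the sorts for every semaphorin, neuropilin and plexin gene, grouped by class, with the standard error of the fit as a bar and each litter's own difference as a tick below. Class 3 and class 4 ligands and class A and class B plexins each hold genes on both sides of 0, and both neuropilins are below 0.

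By class, 4 of 7 class 3 genes were higher and 1 lower, and 2 of 6 class 4 genes were higher and 3 lower. In class 5 it was 1 higher of 2, in class 6 1 higher of 4, and the single class 7 gene was lower. Of 4 class A plexins 1 was higher and 2 lower. The share called was 71.4% in class 3, 83.3% in class 4, 50% in class 5 and 25% in class 6. It was 75% for class A plexins, where 41.4% of all genes tested were called. With so few genes in each class, these shares are not read as traits of a class. For known ligand and receptor pairs the members were not always on the same side. Sema3a was higher (1.45) while its co-receptor gene Nrp1 was lower (-1.35), and Sema7a was lower (-3.35) while Plxnc1 did not pass (0.56). Sema5a was higher (8.26) while Plxnb3 was lower (-1.53). Sema4d was lower (-1.0) while Plxnb1 was higher (1.23). In other pairs some members shared a side. Sema4a was higher (4.80), as was Plxnb1 (1.23) of the class B plexins that it binds, while Plxnb3 of that class was lower (-1.53). Plxnb2 (0.01) and Plxnd1 (-0.59), also of the plexin classes that it binds, did not pass. Sema3e was lower (-1.76), and its receptor gene Plxnd1 had the same sign without passing (-0.59). These are examples with their values side by side and not a full count, and no test of a pair was made.

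Probe sets of one gene mostly gave the same direction. Of 45 tested probe sets that did not represent their gene, 39 had the sign of the representing one, 6 had the opposite sign and 0 were called the other way. The 6 belonged to Plxnc1, Sema6a and Sema6c, none of which passed. Among genes that passed, 1 other tested probe set did not pass for each of Sema3b, Sema3c, Sema4b, Sema4d, Sema5a, Sema6d, Sema7a and Plxna4, at 0.75, 0.64, 2.85, -1.33, 1.85, 0.08, -0.39 and -0.78 on the log2 scale, each with the sign of its gene. Some agreeing probe sets that were called lay near or below the array median. Once dim values were set to that median, they no longer passed. These were Sema3a 1420417_at (0.0073), Sema3b 1416644_a_at (-0.0008), Sema3e 1425906_a_at (-0.0008), and Sema6d 1446536_at (0.0442) and 1448060_at (0.19). In all, 26 of 77 member probe sets were called higher and 22 lower, where the rule called 34.9% of all probe sets tested.

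**Figure D4:**
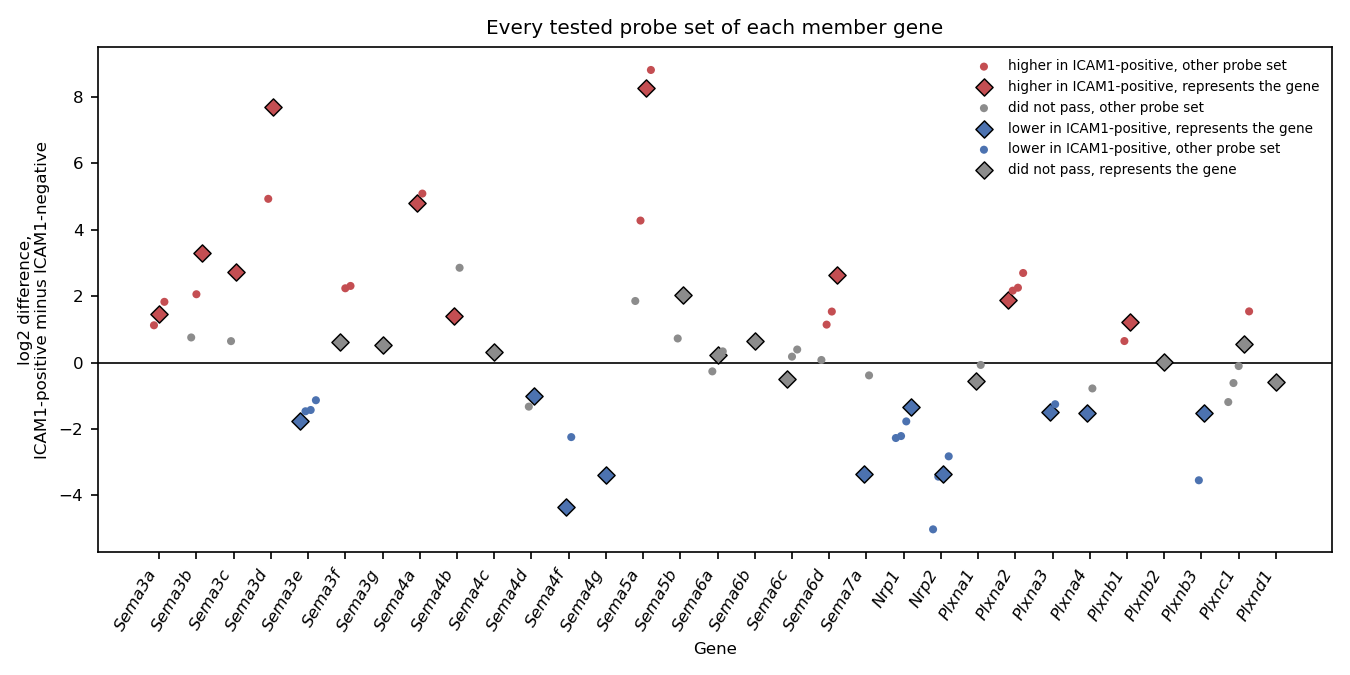
Log2 difference of every tested probe set of each gene, with a diamond for the one that represents it and dots for the others, coloured by call. Nrp1, Nrp2, Sema3e, Plxna2 and Sema3a have all probe sets on one side, and the Sema3f diamond lies nearer 0 than its other probe sets.

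The upstream sequences of members with large differences are shown next, 1 ligand that was higher, 1 ligand that was lower and 1 co-receptor gene that was lower. The coordinates are chr15:32244563-32244812 (plus strand) for Sema5a, chr6:82939770-82940019 (minus strand) for Sema4f and chr1:62703067-62703316 (plus strand) for Nrp2, in GRCm38.p6. G and C make up 72%, 46% and 72.4% of them, with 17, 4 and 32 CpG dinucleotides against a median of 13 over the member promoters and 6 over all promoters. Capitals again mark the E-box CAGGTG on either strand, which occurs 2 times before Sema4f.
Sema5a: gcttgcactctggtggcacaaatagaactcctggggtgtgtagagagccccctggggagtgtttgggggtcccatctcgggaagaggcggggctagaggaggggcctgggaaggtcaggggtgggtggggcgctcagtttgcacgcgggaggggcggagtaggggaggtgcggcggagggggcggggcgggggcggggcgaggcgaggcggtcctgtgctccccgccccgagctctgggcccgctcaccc
Sema4f: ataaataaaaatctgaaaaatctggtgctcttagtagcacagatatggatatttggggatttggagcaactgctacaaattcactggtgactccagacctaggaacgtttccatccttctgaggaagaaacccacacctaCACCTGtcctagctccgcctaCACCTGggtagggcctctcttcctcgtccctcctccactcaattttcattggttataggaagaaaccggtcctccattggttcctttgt
Nrp2: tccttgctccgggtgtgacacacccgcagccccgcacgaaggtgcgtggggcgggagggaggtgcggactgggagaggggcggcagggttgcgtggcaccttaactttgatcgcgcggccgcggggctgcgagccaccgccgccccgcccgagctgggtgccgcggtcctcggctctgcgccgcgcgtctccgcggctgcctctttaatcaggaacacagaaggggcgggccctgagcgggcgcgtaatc

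RefSeq promoters were found for 26 of the 31 ligand and receptor genes (not for Plxna1, Plxna4, Sema3b, Sema3f and Sema6a), 37 sequences in all because some genes have several starts. The E-box CAGGTG, searched on both strands, was in 5 of the 37 (13.5%) against 17.2% of all 32851 promoters of the same length. It preceded Sema3d and Sema6d, which were higher, Sema4f, which was lower, and Sema4c and Plxnb2, which did not pass. For Sema6d, Sema4c and Plxnb2 it was before only 1 of the 2 starts listed. Which start was used in these cells was not tested. The E-box CAGATG, the form bound by neuronal bHLH factors, was before Sema3c and 1 of the 4 starts of Sema4a (5.41% of the member promoters against 14.4%). The EBF motif, which reads the same on both strands, was before Plxnb1 (2.7% against 0.779%). The p63 core motif was searched only as RRRCATGYYY (R is A or G, Y is C or T). Neither that form (1.63% of all promoters) nor TATAAA (12.4%) was found in these windows on either strand. Forms of the p63 site with other letters in place of CATG were not searched, so their absence cannot be read from this. Both E-boxes are forms of CANNTG, and 0 of the 37 member sequences had overlapping matches of different motifs. A match is a description of these letters only.

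Other genes of the pathway were taken from lists chosen by role, of which 51 of 55 genes were measured: 18 rose and 9 fell in the ICAM1-positive sorts, with a median log2 difference of 0.51, where 20.6% of all genes were called higher and 20.8% lower with a median of -0.06. The lists were drawn up with earlier results of these data known. Their counts, here and list by list below, are therefore no independent test against the all-gene shares. With litter as a block, Mical1 no longer passed (adjusted p = 0.0569), while Chl1 (0.0172), Mst1r (0.0428), Limk2 (0.0412), Gipc1 (0.0373) and Dpysl2 (0.0194) did. Without litter 3, 9 were higher and 8 lower. Among 12 surface partners 6 were higher and 1 lower. Nrcam, a cell adhesion molecule that associates with neuropilins, rose from 201 ± 27.3 to 13525 ± 1229 (mean ± SD, n = 3; log2 difference 6.08 ± 0.19, adjusted p = 0.000124). Met, the hepatocyte growth factor receptor gene whose product couples with class B plexins, rose by 4.66 ± 0.20, and Erbb2, another such kinase gene, was at least 3.19-fold higher. L1cam, the adhesion molecule that partners Nrp1 in axons, fell from 2401 ± 471 to 299 ± 66.2 (log2 difference -3.01 ± 0.25, adjusted p = 0.000459). L1cam and Nrcam thus moved in opposite directions. Kdr, Itga1 and Trem2 were below the array median on all 6 arrays.

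Of 6 VEGF ligands and receptors linked to neuropilins, 2 were higher and 0 lower, where 41.4% of all genes tested were called in either direction. The count is therefore not read as a result about these genes. Vegfa, which binds both neuropilins, rose from 187 ± 21.7 to 1510 ± 116 (mean ± SD, n = 3; log2 difference 3.02 ± 0.18, adjusted p = 0.000197), and Vegfb was at least 3.49-fold higher. The receptor gene Flt1 and the ligand gene Vegfc were below the array median on all 6 arrays.

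Of 17 genes for plexin-associated GTPases and their regulators 8 were higher and 1 lower, where 20.6% of all genes were called higher and 20.8% lower. Rras, a GTPase inactivated by plexins, rose by 4.37 ± 0.19, and Rnd3, a small G protein without GTPase activity, by 3.72 ± 0.23. Farp1, an exchange factor gene of the FARP family, rose by 1.70 ± 0.27. Rnd2, a related gene known from migrating neurons, fell by 2.31 on the log2 scale (SE 0.18, adjusted p = 0.000417).

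Of 16 cytoskeletal effectors 7 were lower and 2 higher, with a median of -0.79; 20.8% of all genes were called lower and 20.6% higher. The collapsin response mediators, which relay Sema3a to microtubules, did not all pass. Without the litter block Dpysl2 (log2 difference -0.80, adjusted p = 0.11) and Dpysl4 (-0.44, adjusted p = 0.296) did not. With the block Dpysl2 passed (0.0194). Dpysl3 was lower (-1.86, adjusted p = 0.00124 without the block), and the largest falls were those of Crmp1 and Dpysl5. Crmp1 fell from 4491 ± 1122 to 252 ± 118 (mean ± SD, n = 3; log2 difference -4.23 ± 0.39, adjusted p = 0.000652), and Dpysl5 fell from 834 ± 255 to 73.2 ± 35.3 (log2 difference -3.57 ± 0.41, adjusted p = 0.00135). Cdk5r1, the activator of the kinase that phosphorylates these mediators, was at least 4.37-fold lower. Fes, a kinase gene of myeloid cells among others, was at least 1.99-fold higher, and Mical1, an actin-oxidising enzyme gene, rose by 1.03 ± 0.30 without the litter block but did not pass with it. Markers of immature neurons fell for 6 of 6 genes in the same arrays, and macrophage markers rose for 7 of 8.

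**Figure D5:**
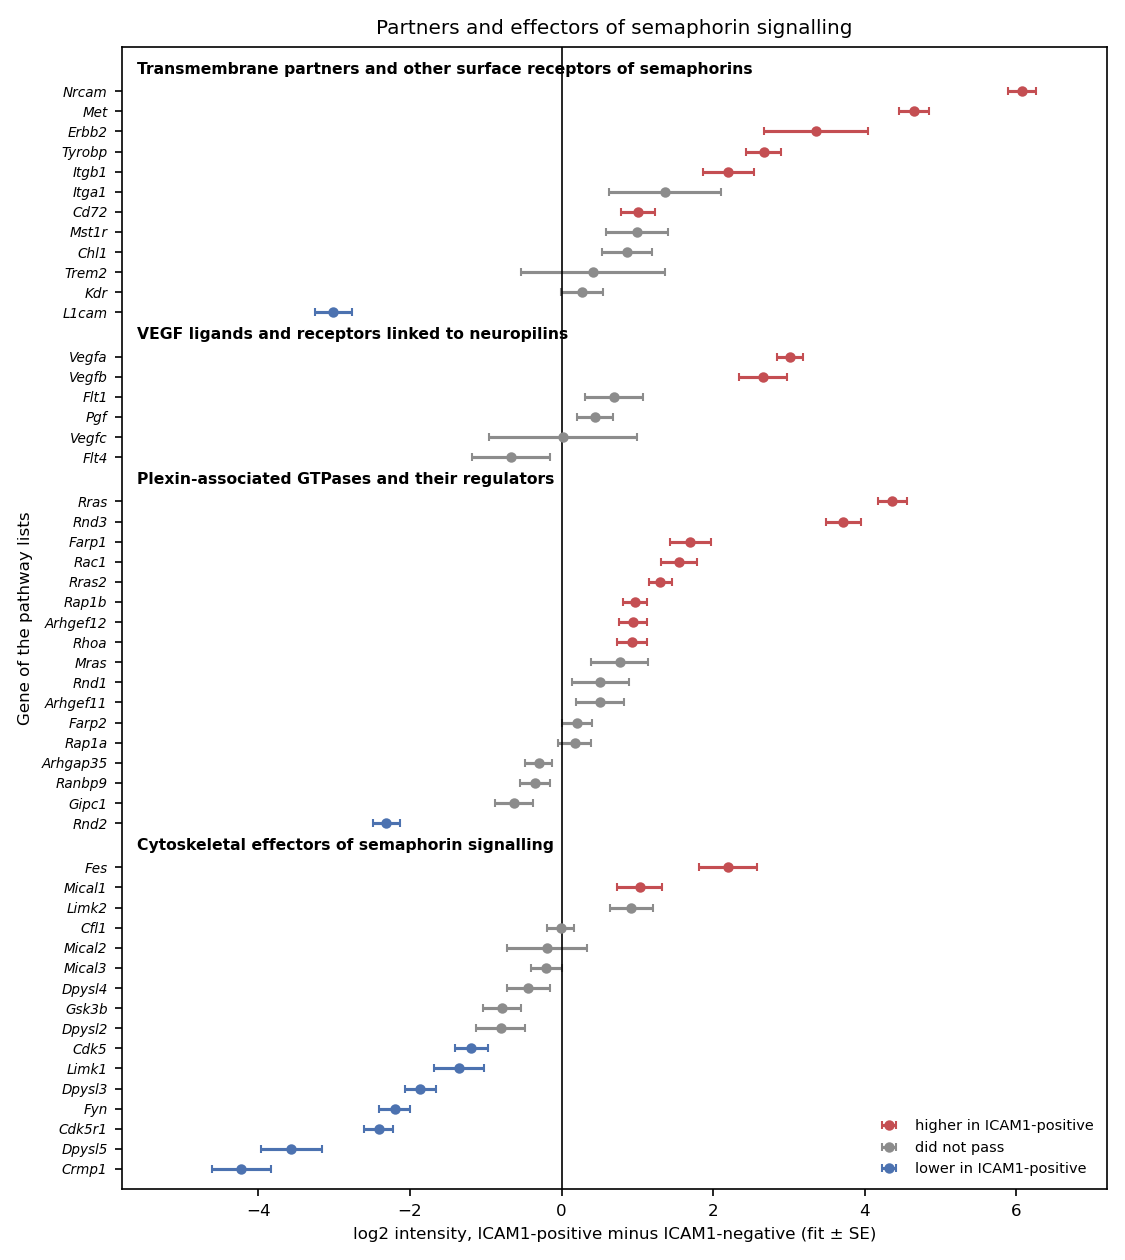
Log2 difference with the standard error of the fit for the 51 measured genes of the pathway lists, ordered within each list and coloured by call. Surface partners and GTPases lie mostly above 0, and the effectors mostly below 0, with Crmp1 lowest at -4.23 and Nrcam highest at 6.08.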

How the data were processed

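The authors deposited linear intensities per probe set for 6 arrays of the Affymetrix mouse genome platform. RNA came from TRIzol extraction, per the labels' protocols, and was amplified in 2 rounds before labelling, per the design text. GCRMA is named in the submitters' processing notes, but the deposited intensities are not on a log2 scale, and on every array their trimmed mean (2% off each end) is 500; the program that made them is not given in the sources used here. Array medians ran from 87.9 to 102.8.

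Intensities were log2 transformed. Probe sets above an intensity of 16 on at least 3 of 6 arrays entered the test, 38694 after removal of 64 controls. The platform table supplied gene names (34945 probe sets with 1 gene, 932 with several, 9160 with none listed); 0 member symbols shared a probe set with another gene. A gene was represented by its kept probe set with the highest mean. Differences (ICAM1-positive minus ICAM1-negative) were fitted without a litter block using limma 3.58.1 (lmFit and eBayes; R 4.3.3), with Benjamini-Hochberg adjustment over the 38694. Errors of log2 differences are standard errors. A sort dimmer than the array median throughout was set to that median, and its fold is given as a lower bound. P-values measure the spread between litters.

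The series text says that replicate numbers mark litters; deviations from the group means correlated at 0.127, 0.199 and 0.081 within litters 1, 2 and 3. Every member gene is named; array values are printed for each gene past the threshold and for those with a median above 500 in either sort, and up to 3 genes per direction are named from each pathway list. Members, lists and the bound on dim values were chosen with earlier results of these data known. The alternatives were a litter block, quantile normalisation, other filters and a pseudocount, raised low values, averaged probe sets, a variance trend, and each litter or array left out. Representing genes without probe sets ending in _s_at or _x_at was added after seeing the data. Scripts were tested on simulated data. Promoter sequences are from RefSeq, build GRCm38.p6.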

Additional observations from a re-analysis of the deposited data

How the results depend on the processing

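Of the 20 member genes that passed, 14 kept their call and direction under all 18 alternatives, and 0 reversed. The other 6 were Sema3b, Sema4b, Sema4d, Nrp1, Plxna3 and Plxnb1, whose lost calls are given beside their values. Litter as a paired replicate block changed no member's call other than that of Sema3b (log2 difference 3.29, adjusted p = 0.0715), and gave 7 ligands higher and 5 lower, 2 receptors higher and 5 lower, and 6899 probe sets higher and 7476 lower against 6528 and 6984 without it. With 1 litter or array left out, probe sets higher ran from 3764 to 5854 and lower from 3678 to 6013, receptor genes higher from 1 to 2 and lower from 3 to 5, and pathway genes higher from 9 to 18; fewer arrays were tested there. Ligand genes ran from 6 to 8 higher and from 4 to 5 lower.

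The genes that changed sign had not passed. With quantile normalisation Plxnb2 was at -0.0019, and once dim values were set to the array median Sema3g, Sema5b and Sema6b were each at -0.0008, since all their values were replaced. Averaging probe sets put Sema6c at 0.0288. With 1 litter or array left out, Plxnb2 ran from -0.0828 to 0.14, Sema3g from -0.27 to 1.04, Sema6a from -0.0003 to 0.40 and Sema6c from -1.49 to 0.81. Sema3f passed with probe sets ending in _x_at set aside (2.23, adjusted p = 0.00291), with probe sets averaged (1.72, 0.00442), with a variance trend (0.0333), with low values raised (0.0444) and without ICAM1-positive array 2 (0.0447). Plxnc1 passed with the stricter filter (0.0202), low values raised (0.00928), 16 added to each intensity (0.05) or a variance trend (0.0465). With low values raised, the log2 differences of Sema3f and Plxnc1 stayed at 0.61 and 0.56. Their standard errors fell from 0.24 to 0.19 and from 0.18 to 0.13, so these 2 passes came without a change in either gene's difference. The cause of these changes was not tested. Intensities below about the array median limit what can be read of Sema3g, Sema5b and Sema6b. With the stricter filter these 3 genes gave no value.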
